A study of Mus musculus with 16 samples.

Results

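Ageing of the male mouse bladder was followed across all measured genes on the 8 arrays titled as old males and young males, out of 16 arrays in the series. AGED males were 27 to 30 months old and MAT (mature) males were 12 months old, with 4 arrays in each group. All were C57BL/6 mice, and the labels name no treatment or altered gene. The same strain, ages and tissue in females make up the other 8 arrays, which enter here only through the spread shared by all groups and the test of the difference between the sexes. RNA was taken from the dissected bladder body and hybridized with 1 dye (Cy3), 1 bladder per array.

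The bladder body is a wall of detrusor smooth muscle beneath a mucosa lined by urothelium, whose surface umbrella cells are plated with uroplakins. It stores urine at low pressure and empties when nerves act on muscarinic and purinergic receptors of the muscle, while beta-adrenergic receptors relax it. Connective tissue with collagen, blood vessels, nerves and resident macrophages lie between these layers.

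The labelled tissue carried its markers. All 13 smooth muscle contractile genes tested and all 9 genes of uroplakins and umbrella cells were well above background on every male array, and of 13 genes of the male accessory glands only Spink1 and Tgm4 had enough signal to be tested. Probes had to be well above background on 4 or more of the 8 male arrays, which left 34140 of 55681 probes and 25054 genes, each represented by its brightest kept probe. Of these genes 15278 had a symbol. Signals are log2 values of the processed signal less the 75th percentile of the array, so that 0 is the level of that percentile.

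The arrays were not of equal quality. The male arrays shared 1 slide, with MAT in row 1 and AGED in row 2, so age and slide row cannot be told apart. The replicate number of each array equals its slide column. Spots of 1 probe differed by a median SD of 0.129 to 0.335 on AGED male arrays, 0.0605 to 0.174 on MAT male arrays and 0.0376 to 0.0957 on female arrays. AGED male replicate 1 was the dimmest, with a 75th percentile of 9.39, where the other AGED male arrays had 10.13 to 10.24. Over all genes, the median SD within a group was 0.346 for AGED males, 0.214 for MAT males, 0.230 for AGED females and 0.14 for MAT females.

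**Figure D1:**
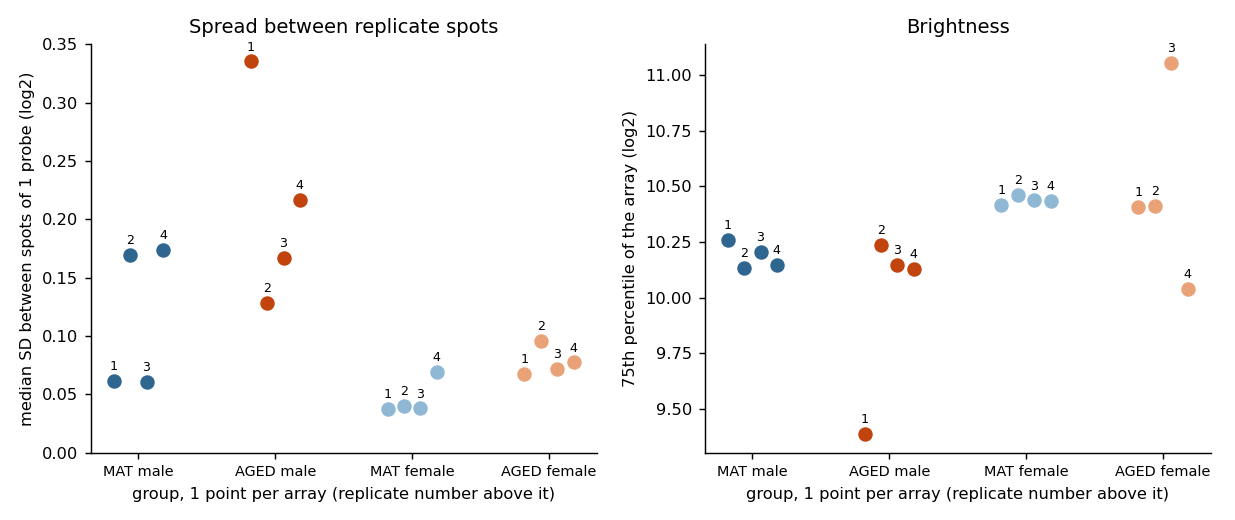
Left, the median standard deviation (log2) between replicate spots of 1 probe, and right, the 75th percentile of the log2 signal, for each of the 16 arrays (1 point per array, replicate number above it). AGED male replicate 1 has the largest spread between spots (0.335) and the lowest 75th percentile (9.39).

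In AGED males the largest rises among genes with a symbol were those of Saa3, Chil3, Marco and Cxcl13, and the largest falls those of Ephb1, AI593442, Slc38a5 and Rln1. Chil3 was 51.4-fold higher in AGED than in MAT males, a log2 change of 5.68 (standard error 0.38, n = 4 and 4). Ephb1 was 8.37-fold lower in the main processing, with no AGED array well above background. These directions follow the labels of the arrays. For the called genes of the study's own list of leading changes they are opposite to that list's headings. If the labels rather than the headings were reversed, every rise and fall given here would change sign. Which of them is right was not tested. Called at an adjusted p under 0.05 (limma, Benjamini-Hochberg over all genes) and a change of at least 2-fold, 68 genes were higher and 151 lower, which is 0.271% and 0.603% of the genes tested, and 0.874% together. The groups had no overlap in 67 of the 68 and in 142 of the 151, and in 4.01% of all genes with AGED higher and 4.1% with AGED lower. With a symbol there were 43 higher and 102 lower. The median change over all genes was 0.0012, and 345 genes were 2-fold or more higher and 427 lower before any test.

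These counts rest on a spread shared with the tighter female arrays. With the male arrays fitted alone, limma called 17 genes, 8 higher and 9 lower, although all 219 had an unadjusted p under 0.05 in that fit. The rule for named genes took in 44 of the called genes, and 3 of these, Chil3, Ephb1 and Tmsb15l, were also called on the male arrays alone, where the adjusted p of the others ran from 0.0696 to 0.290. Further genes called in both fits are named below after their values were seen. Leaving out AGED male replicate 2, the model of all arrays called 366 genes, and leaving out MAT male replicate 3 it called 125. Without AGED male replicate 1 it called 79 genes higher and 208 lower, and 177 of the 219 genes were among them. On the male arrays alone, a setting chosen after seeing the data, 64 genes were called without that array, 19 higher and 45 lower.

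**Figure D2:**
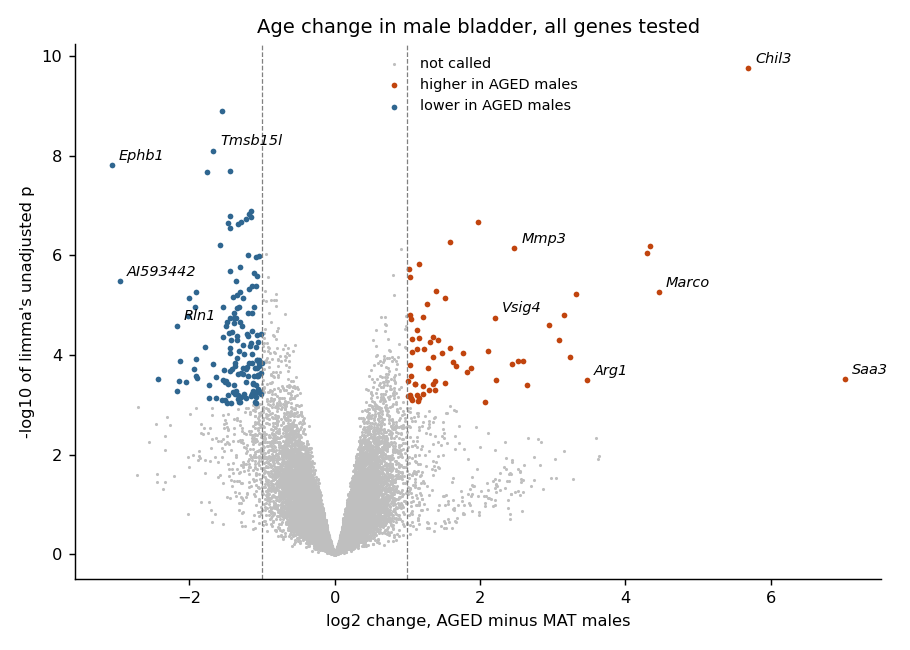
Log2 change (AGED minus MAT males, x axis) against -log10 of limma's unadjusted p (y axis) for the 25054 genes tested, with the 68 genes called higher and the 151 called lower in colour and dashed lines at 2-fold. Chil3 lies far from the other rises and Ephb1 has the largest fall.

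Several genes expressed by macrophages rose. On the AGED arrays Chil3, a chitinase-like lectin of alternatively activated macrophages, had log2 signals of 3.86, 2.17, 2.46 and 2.43 (replicates 1 to 4), and on the MAT arrays -3.05, -2.96, -2.80 and -3.0. The 4 MAT arrays lay close together and far below every AGED array. The adjusted p was 4.44e-06, and 0.00127 on the male arrays alone. Marco, a scavenger receptor, had signals of 2.23, -2.04, -1.93 and -0.18 on AGED arrays and -4.73, -5.10, -5.26 and -4.65 on MAT arrays. Replicate 1 was the highest AGED array here too, but the other 3 AGED arrays were also above all MAT arrays. The change was 4.46 (standard error 0.65, adjusted p = 0.00306), and 3.55 without AGED male replicate 1.

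Vsig4, a complement receptor of resident macrophages, was measured at 2.29, 0.79, 1.45 and 1.41 in AGED males and -1.18, -0.23, -1.02 and -0.43 in MAT males, a change of 2.20 (standard error 0.36, adjusted p = 0.00560). For Cd5l, a protein secreted by macrophages, the AGED signals were -0.68, -4.08, -2.85 and -1.42 and the MAT signals -4.78, -6.45, -5.79 and -4.95. The groups did not overlap, but the MAT signals of Cd5l were well above background on 2 arrays. Its change was 3.23 (standard error 0.62, adjusted p = 0.0157, and 0.0513 and 0.0518 without MAT male replicate 2 or 3). Arg1, the arginase of alternatively activated macrophages, was well above background on every AGED array (-3.28, -5.31, -1.73 and -3.35) and on no MAT array. It was at least 5.60-fold higher in the main processing (adjusted p = 0.0277). It lost its call when 1 of AGED replicates 3 and 4 or MAT replicates 1, 3 and 4 was left out, with adjusted p of 0.0507 to 0.0808.

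No other macrophage marker tested was called. Of 15 tested genes of macrophage identity and scavenging, 3 rose (Marco, Vsig4 and Cd5l), none fell, and the median change was 0.38. Csf1r, the growth factor receptor of macrophages, changed by 0.38 (adjusted p = 0.337) and C1qa, a complement subunit they secrete, by 0.38 (adjusted p = 0.465). Adgre1, a surface marker of mouse macrophages, changed by -0.58 (adjusted p = 0.452). The median level of the list, relative to its MAT mean, was 1.47 on AGED male replicate 1 and 0.05 to 0.17 on the other AGED arrays, against -0.14 to 0.16 on MAT arrays. In bulk tissue, more cells of a type and more RNA in each cell cannot be told apart. Among 8 tested genes of alternative activation only Chil3 and Arg1 rose. Retnla, a secreted protein of the same cells, changed by -1.88 (adjusted p = 0.167), and the list's median was -0.19.

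**Figure D3:**
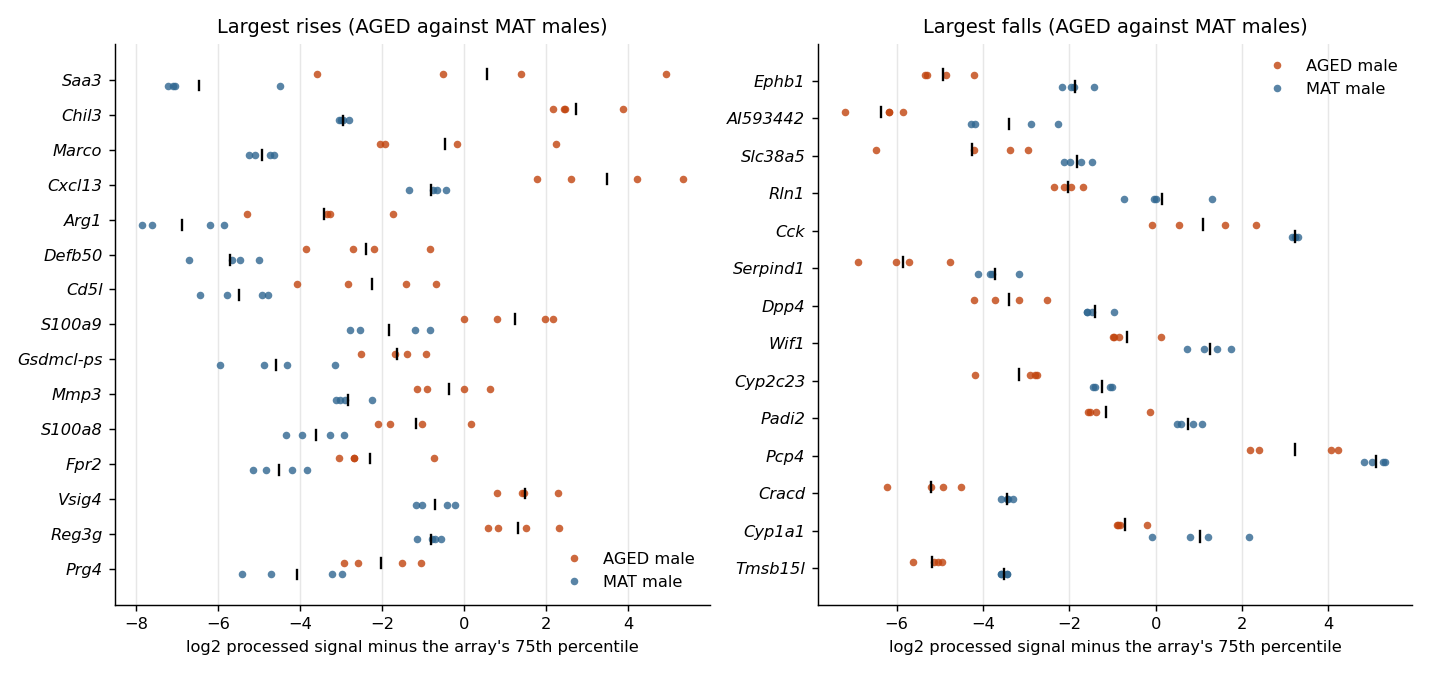
Log2 processed signal less the array's 75th percentile (x axis) for the largest rises (left) and largest falls (right) among called genes with a symbol; each point is 1 array, with 4 AGED and 4 MAT males per gene, and the bar is the group mean. The AGED and MAT points of each gene do not overlap, and the MAT points are the tighter ones in Chil3, Marco and Cck.

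Cxcl13, the chemokine that draws B cells into lymphoid follicles, rose by 4.29 (standard error 0.54, adjusted p = 0.00102). Its AGED signals were 5.33, 2.61, 4.21 and 1.77 and its MAT signals -0.76, -1.35, -0.67 and -0.45. Every AGED array was far above the MAT arrays, and the spread among AGED males was 1.59 (SD, n = 4) against 0.39. No other of the 8 tested genes of lymphoid tissue chemokines was called, and their median was 0.59. None of 9 B and plasma cell genes was called, with a median of 0.44. Mzb1, a protein of plasma cells, changed by 1.97 (adjusted p = 0.335). None of 14 T cell and cytotoxic genes was called. Their median change was 0.45, and their level was 2.21 on the highest AGED array and -0.22 on the lowest.

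Of genes known from neutrophils, S100a8, S100a9 and Lcn2 rose. S100a9 and S100a8 encode the subunits of calprotectin, which neutrophils store in bulk. For S100a9 the AGED signals were 1.98, -0.01, 2.17 and 0.81 and the MAT signals -1.20, -0.85, -2.54 and -2.79, a change of 3.08 (standard error 0.55, adjusted p = 0.0103). S100a8 changed by 2.43 (standard error 0.49, adjusted p = 0.0180, and 0.0672 without MAT male replicate 3). Its lowest AGED array, at -2.09, was above the highest MAT array, at -2.93. Lcn2, which binds bacterial siderophores, rose by 1.05 (adjusted p = 0.0248), but leaving out MAT male replicate 1, 3 or 4 gave an adjusted p of 0.0774, 0.0745 and 0.0530, and leaving out AGED male replicate 3 a change of 0.83. Of 9 tested neutrophil genes these 3 rose, none fell, and the median was 0.77. Mpo and Elane, enzymes of neutrophil granules, changed by -0.51 (adjusted p = 0.429) and -0.26 (adjusted p = 0.723). The level of the neutrophil list was 0.41 to 1.36 on AGED arrays and -0.25 to 0.24 on MAT arrays. Fpr2, a receptor for formylated peptides, rose by 2.22 (adjusted p = 0.0274, and 0.0766 and 0.0929 without MAT male replicate 1 or 3).

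Saa3, an acute phase apolipoprotein made outside the liver, had the largest fitted change and the least certain size. Its signal ran from -3.59 to 4.92 among AGED males (4.92, -3.59, -0.52 and 1.38), and in MAT males it was well above background on 1 array (-4.49, with -7.05, -7.11 and -7.23 on the others). Each AGED array exceeded each MAT array. The change was 7.02 (standard error 1.51, adjusted p = 0.0272), and 5.56 without AGED male replicate 1. It was not called without AGED replicate 4 or MAT replicate 2, 3 or 4 (adjusted p of 0.0560 to 0.0815), nor under normexp background correction (3.94, adjusted p = 0.0610) or array weights (5.05, adjusted p = 0.0882). No other of 6 tested acute phase genes was called. Saa1 changed by 1.47 (adjusted p = 0.122) and haptoglobin (Hp) by 1.14 (adjusted p = 0.396), and the median of the list was 1.04. The level of the list was 2.02 on AGED male replicate 1, 0.18 to 0.66 on the other AGED arrays and -0.09 to 0.02 on MAT arrays.

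Reg3g, Defb50, Gsdmc3 and Gsdmcl-ps also rose. Reg3g, an antibacterial lectin of epithelia, had signals of 2.31, 0.82, 1.52 and 0.58 in AGED and -0.70, -0.58, -1.16 and -0.78 in MAT males. It rose by 2.11 (adjusted p = 0.0136, and 0.0501 without MAT male replicate 3). The beta-defensin Defb50 rose by 3.32 (standard error 0.49, adjusted p = 0.00320), with a signal well above background on 2 of the 4 MAT arrays. Gsdmc3 and Gsdmcl-ps belong to the gasdermin C cluster, a family of pore-forming proteins and related sequences so alike that probes may read more than 1 member. Gsdmc3 was among the brightest called genes, at 7.31, 6.61, 6.15 and 6.16 in AGED and 4.81, 5.46, 5.64 and 4.24 in MAT males. It rose by 1.52 (adjusted p = 0.0296), but leaving out AGED male replicate 1 gave an adjusted p of 0.0532, and leaving out MAT male replicate 1 or 4 gave 0.0829 and 0.0680. Gsdmcl-ps rose by 2.94 (adjusted p = 0.00694). The other tested members of the cluster, looked up after these values were seen, were Gsdmc at 1.53 (adjusted p = 0.0596) and Gsdmc4 at 1.3 (adjusted p = 0.141). Of gasdermins outside the cluster, Gsdmd changed by 0.28 (adjusted p = 0.354), Gsdma by -1.16 (adjusted p = 0.193) and Gsdme by -0.42 (adjusted p = 0.0678).

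Of the genes that remodel matrix, Mmp3 (stromelysin) alone was called among 11 tested metalloproteinases and inhibitors. Its signals were -0.01, -0.91, -1.15 and 0.63 on AGED arrays and -3.03, -2.26, -2.92 and -3.12 on MAT arrays. The groups were well separated, and the change was 2.47 (standard error 0.30, adjusted p = 0.000898). The median of the list was -0.04. Prg4, which encodes the lubricant lubricin, rose by 2.06 (adjusted p = 0.0473), a value just inside the limit that passed it when any of 13 single arrays was left out, among them AGED male replicate 1 (adjusted p = 0.0840) and MAT male replicate 2 (0.119).

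Promoters of 3 of these rising genes are shown for the motifs they hold, as RefSeq gives them on GRCm38.p6. The 250 bases before each gene's start were searched on both strands for AP-1 (TGANTCA), STAT (TTCNNNGAA) and the TATA box (TATAAA). Each stretch of 60 bases runs 5′ to 3′ on the gene's strand, and capitals mark the match named before it.
Chil3, chr3:106167705-106167764, minus strand, STAT match: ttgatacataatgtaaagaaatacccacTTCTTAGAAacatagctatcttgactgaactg
Cxcl13, chr5:95956879-95956938, plus strand, TATA box match: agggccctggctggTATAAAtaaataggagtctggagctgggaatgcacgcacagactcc
Mmp3, chr9:7445762-7445821, plus strand, AP-1 match: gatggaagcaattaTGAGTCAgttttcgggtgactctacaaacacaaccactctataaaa

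Of the 15 largest rises, 11 had a promoter in the reference table, and AP-1 matched in 1 of them, STAT in 2 and the TATA box in 5. Of the 15 largest falls, 13 had one, with AP-1 in 0, STAT in 1 and the TATA box in 4. Among all 32851 promoters of the table, 6.75% held the AP-1 motif, 7.02% the STAT motif and 12.4% the TATA box. A match describes letters in this window and is not evidence of binding.

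The 5 brightest genes called higher were Gsdmc3, Spag7, Taok1, Ogfod1 and Gm6994. Ogfod1, a hydroxylase of a ribosomal protein, was measured at 5.73, 4.71, 4.79 and 4.66 in AGED and 3.30, 3.62, 3.53 and 3.96 in MAT males, a change of 1.37 (adjusted p = 0.0278, and 0.0828, 0.0638 and 0.0810 without MAT male replicate 1, 2 or 3). Its other probe moved the opposite way, by -0.50 (two-sided exact permutation p = 0.0286, and 4 against 4 arrays can give none smaller), so the gene's direction depends on the probe. Spag7 rose by 1.21 (adjusted p = 0.0384), and lost its call when any of 10 single arrays was left out, among them MAT male replicate 1 (adjusted p = 0.106) and AGED male replicate 1 (0.0723). The kinase gene Taok1 rose by 1.04 (adjusted p = 0.0185) with 1 AGED value removed as a flagged spot, and was not called without MAT male replicate 1, 2 or 3 (adjusted p of 0.0565, 0.0508 and 0.0625). With the flagged spot kept it changed by 0.96, with median scaling by 0.95 and in the authors' table by 0.96, each less than 2-fold. Under normexp background correction, Spag7, Ogfod1 and Gm6994 changed by 0.33, 0.27 and 0.23 and were not called.

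Ephb1, a receptor tyrosine kinase for B-type ephrins, had the largest fall. In MAT males its signals were -2.16, -1.96, -1.90 and -1.42, all well above background. The AGED signals, -4.85, -5.30, -4.21 and -5.34, were not well above background on any array. The floor used for bounds left them unchanged, so 8.37 is the fitted fold of the main processing and not a lower limit. The adjusted p was 9.09e-05, and 0.0136 on the male arrays alone. Ephb1 stayed called without each array in turn and under normexp, where its change was -1.90. None of the other 7 tested EphB receptors and ephrins was called. Ephb2 changed by -0.18 (adjusted p = 0.459) and Ephb4, an endothelial receptor of the family, by 0.10 (adjusted p = 0.752).

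The peptide genes Rln1 and Cck were among the largest falls. Rln1 encodes the hormone relaxin. It was measured at -2.36, -1.69, -1.97 and -2.12 in AGED and -0.04, 1.31, 0.01 and -0.74 in MAT males. All 8 arrays were well above background and the groups did not overlap. Rln1 fell by 2.17 (standard error 0.36, adjusted p = 0.00694). The relaxin receptor Rxfp1 changed by 0.75 (adjusted p = 0.394). Cck, the peptide cholecystokinin, had signals of 3.23, 3.16, 3.31 and 3.22 on MAT arrays and -0.10, 2.33, 0.54 and 1.61 on AGED arrays. The MAT males were nearly equal and the AGED males ranged widely. Cck fell by 2.14 (adjusted p = 0.0283, and 0.0557 to 0.0805 without AGED male replicate 3 or any 1 MAT array).

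Several genes of enzymes fell. Dpp4, a peptidase that trims peptide hormones and chemokines, had AGED signals of -2.52, -3.18, -4.22 and -3.72 and MAT signals of -1.59, -0.96, -1.49 and -1.60. It fell by 2.0 (standard error 0.30, adjusted p = 0.00343) and stayed called without each array in turn. Padi2, which converts arginine in proteins to citrulline, fell by 1.91 (standard error 0.28, adjusted p = 0.00306), and its other probe changed by -1.69 (exact two-sided permutation test, p = 0.0286). Hsd17b2, which inactivates testosterone and estradiol, was the only gene called of 15 in drug and steroid metabolism, at -0.59, 0.58, 0.12 and 0.84 in AGED and 1.69, 2.07, 1.35 and 1.64 in MAT males. It fell by 1.45 (standard error 0.25, adjusted p = 0.00851). Cyp2c23, an epoxygenase of arachidonic acid, fell by 1.93 (adjusted p = 0.00428).

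Cyp1a1, the cytochrome induced through the aryl hydrocarbon receptor, fell by 1.73 (adjusted p = 0.0424), and passed the limit when any of 12 single arrays was left out, with an adjusted p of 0.0506 to 0.115 and the highest without MAT male replicate 3. The glutamine transporter gene Slc38a5 fell by 2.43 (adjusted p = 0.0267, and 0.0754, 0.0591 and 0.0753 without MAT male replicate 1, 2 or 3). Its AGED signals ran from -6.48 to -2.97 and its MAT signals from -2.13 to -1.47. Wif1, a secreted inhibitor of Wnt, fell by 1.93 (adjusted p = 0.0200, and 0.0585 and 0.0733 without MAT male replicate 2 or 3). Serpind1, heparin cofactor II, fell by 2.12 (adjusted p = 0.0165, and 0.0620 without MAT male replicate 3), with 1 AGED array well above background, and changed by -0.48 under normexp (adjusted p = 0.112). Cracd, an actin regulator, had no AGED array well above background and was at least 3.11-fold lower in the main processing. Under normexp it changed by -0.91, less than 2-fold.

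The 5 brightest genes called lower were Pcp4, Smoc2, Col14a1, Prss23 and Rtl8c. Smoc2, a calcium-binding matrix protein, had signals of 3.85, 4.40, 4.58 and 3.94 in AGED and 5.36, 5.79, 5.61 and 5.60 in MAT males, a change of -1.40 (standard error 0.21, adjusted p = 0.00343). Col14a1, a collagen on the surface of fibrils, was measured at 3.26, 3.91, 3.33 and 3.46 against 4.41, 4.54, 4.66 and 4.70. All 4 MAT arrays lay above all AGED arrays. Col14a1 fell by 1.09 (standard error 0.15, adjusted p = 0.00267), and by 0.93 with array weights, 0.97 with its probes averaged and 0.55 under normexp, where it was not called. Of 13 tested collagen chains it alone was called. The other chains gave values from -1.30 (Col15a1, adjusted p = 0.0812) to 0.06, 12 of the 13 values were negative, and the median was -0.46. Col1a1 changed by -0.54 (adjusted p = 0.250) and Col3a1, the other main fibrillar chain, by -0.72 (adjusted p = 0.280).

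The serine protease gene Prss23 fell by 1.36 (adjusted p = 0.00560). Pcp4, a small calmodulin-binding protein, was the brightest of the largest falls, at 4.22, 4.07, 2.40 and 2.18 in AGED and 5.26, 5.02, 5.32 and 4.83 in MAT males. It fell by 1.89 (adjusted p = 0.0260) and lost its call without any 1 of AGED replicates 3 and 4 and MAT replicates 1, 2 and 3 (adjusted p of 0.0527 to 0.0810). Rtl8c fell by 1.14 (adjusted p = 0.0170), while its other probes changed by 0.02 and 0.14, and without AGED male replicate 1 or 3 its change was -1.0 and -0.95, just under 2-fold. Krt10, a keratin of cornifying epithelium, fell by 1.34 (adjusted p = 0.00439) at its brighter probe and changed by -0.14 at the other (exact two-sided permutation test, p = 0.60). Of 8 squamous genes it alone was called, and their median was 0.04. Tmsb15l, a thymosin beta that binds actin, fell by 1.67 (standard error 0.15, adjusted p = 6.64e-05, and 0.0198 on the male arrays alone), with 1 AGED array well above background. Under normexp it changed by -0.76, less than 2-fold.

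The contractile apparatus of the muscle showed no called gene. Of 13 contractile genes none was called, with changes from -0.49 to 0.27 and a median of 0.015. Their level was -0.18 to 0.08 on AGED and 0.00 to 0.04 on MAT arrays. Acta2 and Myh11, the actin and heavy myosin chains of smooth muscle, changed by 0.06 (adjusted p = 0.866) and 0.07 (adjusted p = 0.833). Among 10 potassium channel genes, 7 values were negative, the median was -0.38 and Kcnmb1 was called. Kcnmb1 encodes the beta subunit that tunes the calcium-activated BK channel of smooth muscle. Its signals were -0.36, -0.06, -0.92 and -0.51 in AGED and 0.76, 0.63, 0.60 and 0.20 in MAT males. It fell by 1.01 (standard error 0.18, adjusted p = 0.00870), a change at the 2-fold limit that lay between -0.99 and -0.86 without any 1 of AGED replicates 3 and 4 and MAT replicates 1, 2 and 3. The pore subunit Kcnma1 changed by 0.04 (adjusted p = 0.939).

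None of the 7 receptor genes of the study's RT-PCR was called. That RT-PCR, which used more MAT males than these arrays, reported significantly lower Chrm3 and P2rx1 in AGED males. The muscarinic receptor Chrm3, the one that drives contraction of the detrusor, had signals of -0.73, -0.53, -0.73 and -0.78 in AGED and -0.51, 0.80, 0.69 and -0.48 in MAT males. The groups did not overlap, though the nearest arrays of each were almost level, and the change was -0.82 (standard error 0.40, adjusted p = 0.310). Such separation was seen in 8.11% of all genes. Chrm2 changed by 0.15 (standard error 0.35) and Chrm1 by -0.53 (standard error 0.39, adjusted p of 0.860 and 0.506). P2rx1, the purinergic receptor of the detrusor, was at 5.95 in both groups, with a change of 0.0026 (standard error 0.18). Adrb3, the receptor that relaxes the detrusor, changed by 0.19 (standard error 0.31, adjusted p = 0.793) and Adrb1 by -0.72 (standard error 0.24, adjusted p = 0.147). The dimmer probe of Adrb1, well above background on 1 AGED and 3 MAT arrays, changed by 0.11 (exact two-sided permutation test, p = 0.83). Gapdh changed by -0.15 (standard error 0.15, adjusted p = 0.635) at its brightest probe. Of its 7 kept probes that one alone was negative, and the others gave 0.03 to 0.31. The signs of Chrm2, P2rx1, Adrb3 and Gapdh each turned under at least 1 other way of processing.

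The genes that the study listed as leading changes and that could be tested were 8. In AGED males Chil3, Mmp3, Defb50 and S100a9 rose. AI593442, an uncharacterized gene, fell. Its MAT signals were -2.26, -4.18, -2.88 and -4.27, and no AGED array was well above background. It was at least 4.38-fold lower in the main processing (adjusted p = 0.00224). Kcnj5, a potassium channel gene, changed by -1.83 (standard error 0.53, adjusted p = 0.0962), with groups that did not overlap, and Gsg1l by -0.98 (standard error 0.40, adjusted p = 0.227). The probes of F10, coagulation factor X, disagreed. The bright one gave 8.38, 7.44, 8.25 and 7.39 in AGED and 7.53, 8.34, 7.74 and 7.37 in MAT males, with a change of 0.12 (adjusted p = 0.841). The dim one was 6.68-fold higher in AGED males (exact two-sided permutation test, p = 0.0286). Since this list was chosen on these arrays, the count is not independent evidence of a direction.

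**Figure D4:**
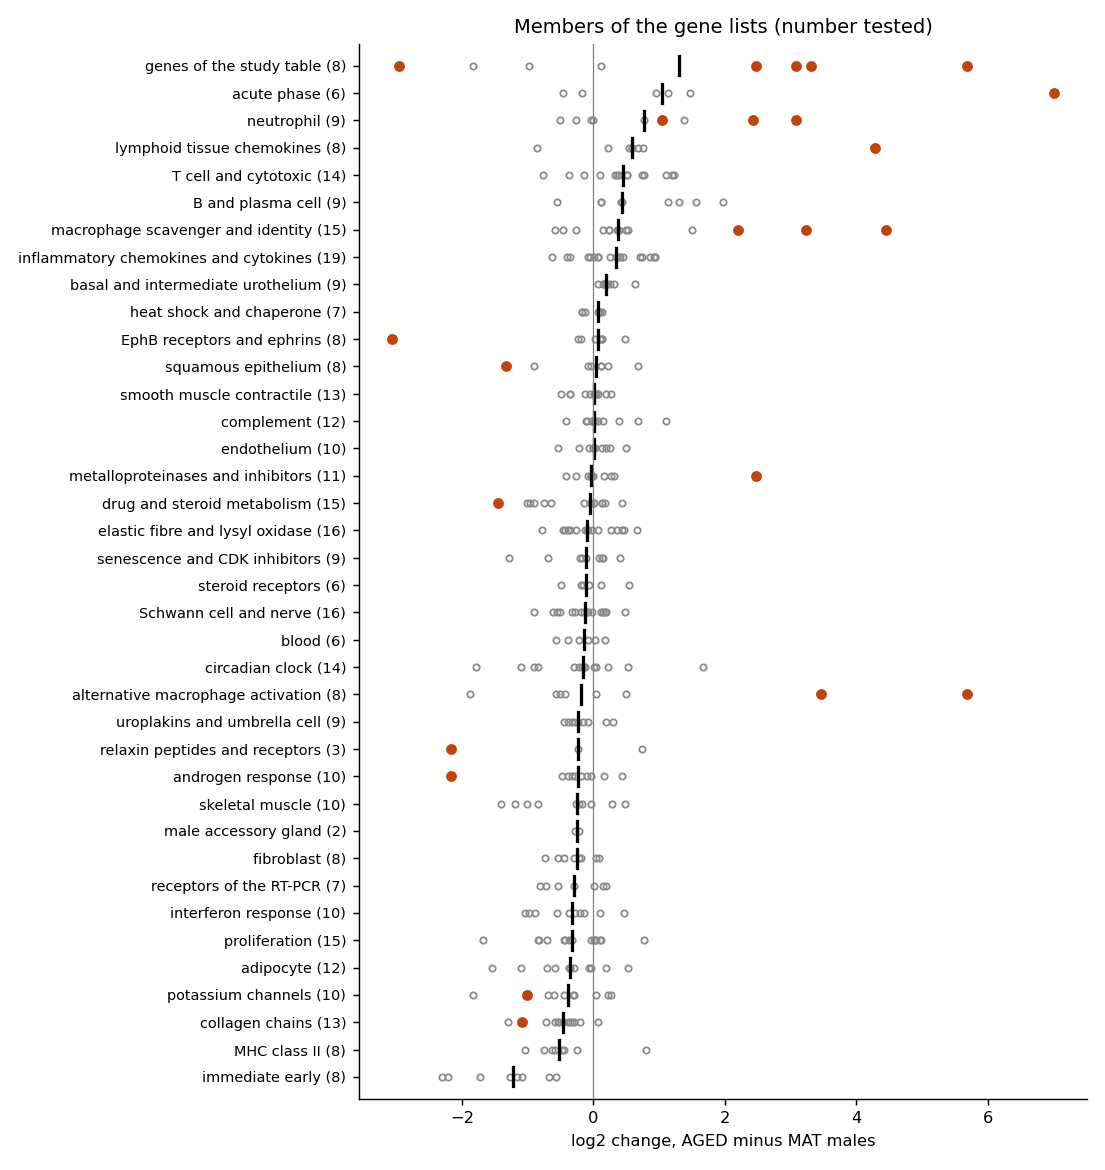
Log2 change (AGED minus MAT males, x axis) of every tested member of the 38 gene lists (number tested in brackets); filled points were called, open points were not, and the bar is the median of the list. Most lists hold no called member, and the called members of the macrophage, lymphoid chemokine and EphB lists lie beyond every other member of those lists.

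The remaining lists held no called gene or only those named above. Epithelial identity showed no call: 9 uroplakin and umbrella cell genes had a median of -0.23, and all 9 genes of basal and intermediate urothelium had positive values with a median of 0.19, the highest in Krt19 at 0.63 (adjusted p = 0.0549). MHC class II genes gave 7 negative values of 8 and a median of -0.53, and 12 complement genes a median of 0.01. Among inflammatory chemokines and cytokines, 14 of 19 values were positive with a median of 0.34, and their level ran from -0.24 to 1.06 on AGED arrays. Fibroblast genes had a median of -0.26 and elastic fibre genes of -0.09. Schwann cell and nerve genes had a median of -0.12, adipocyte genes of -0.35, endothelial genes of 0.00, blood genes of -0.15, skeletal muscle genes of -0.24 and heat shock genes of 0.07. Senescence and CDK inhibitor genes had a median of -0.11, proliferation genes of -0.33, steroid receptors of -0.12 and androgen response genes of -0.24, with Rln1 their called member.

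Immediate early genes had the lowest median of all lists, -1.22, with 8 of 8 values negative and none called. Their level ran from -1.20 to 1.71 among MAT males and from -1.64 to -0.45 among AGED males, so the MAT arrays differed among themselves by more than the change. Egr1, a transcription factor induced within minutes by stimuli, changed by -2.30 (adjusted p = 0.0654) and Fos by -1.73 (adjusted p = 0.374). Among 14 clock genes none was called. Arntl, which encodes the activator BMAL1, changed by 1.68 (adjusted p = 0.0580), and Dbp and Ciart, targets of the clock, by -1.10 (adjusted p = 0.252) and -1.78 (adjusted p = 0.217).

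Females of the same ages were used to ask where the male change differed. On the same genes limma called 44 rises (0.176%) and 2 falls (0.00798%) with age in females, and 8 genes were higher and 0 lower in both sexes. Of the 68 genes higher in males, 50 had a positive value in females, and of the 151 lower, 84 had a negative one. The difference of the age changes was called for 57 genes (0.228%, and between 6 and 285 genes with 1 array left out, the highest without AGED male replicate 1), of which 47 had the lower change in males, 30 were also called in males and 49 had opposite signs in the sexes. Sex and slide cannot be told apart. Chil3 rose more in males, with a difference of 3.15 (standard error 0.53, adjusted p = 0.0298), with a change of 2.54 in females. The other large rises, Marco and Cxcl13, changed by 0.81 and 0.80 in females, but the difference had adjusted p of 0.141 and 0.0832. Vsig4 had a difference of -0.05 (standard error 0.50) and Mmp3 of 0.57 (standard error 0.43, adjusted p of 0.989 and 0.722).

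**Figure D5:**
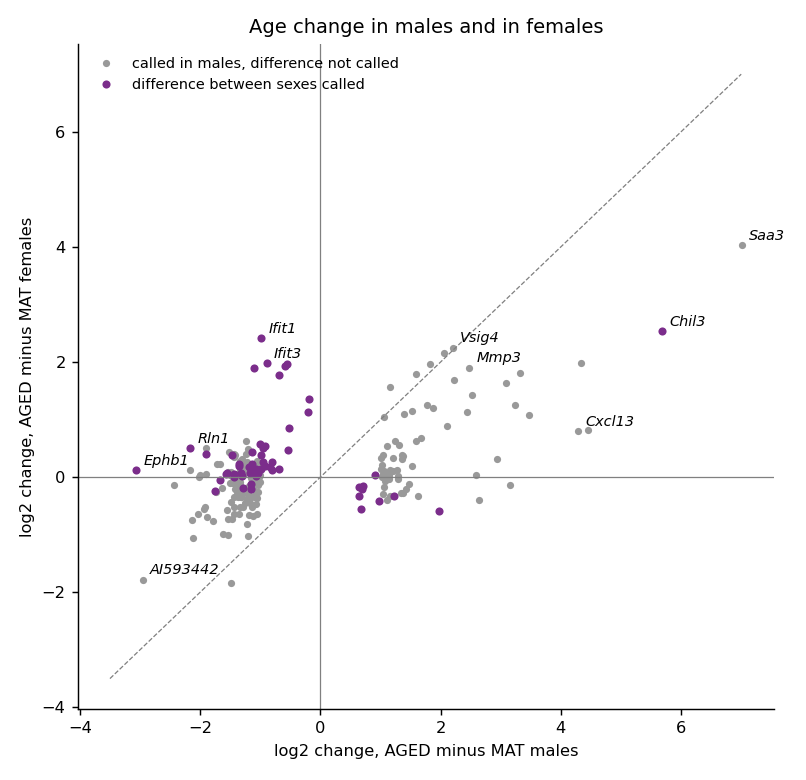
Log2 change with age in males (x axis) and in females (y axis), 1 point per gene, for genes called in males (grey) and for the 57 genes whose difference between the sexes was called (purple); the dashed line marks equal change. Many genes that fell in males lie near 0 in females, while Vsig4 lies on the line.

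Of the largest falls, Ephb1, Rln1, Padi2 and Tmsb15l had a called difference between the sexes. Ephb1 changed by 0.12 in females, a difference of -3.18 (standard error 0.40, adjusted p = 0.00513). Padi2 and Rln1 changed by 0.41 and 0.50 in females, differences of -2.31 (adjusted p = 0.0298) and -2.67 (adjusted p = 0.0476). Tmsb15l differed by -1.62 (adjusted p = 0.00513). Klhl18, an adaptor of a ubiquitin ligase that was singled out after its values were seen, had signals of 0.00 to 0.37 in AGED and 1.56 to 1.92 in MAT males. It fell by 1.55 (standard error 0.12, adjusted p = 1.6e-05), changed by 0.07 in females, and the difference was -1.63 (adjusted p = 0.00188).

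Among the named genes, 3 interferon-induced ones had a called difference between the sexes. Ifit1, Ifit3 and Ifit3b encode interferon-induced proteins with tetratricopeptide repeats. In males they changed by -0.98 (adjusted p = 0.198), -0.89 (adjusted p = 0.181) and -1.10 (adjusted p = 0.157), and in females by 2.42, 1.98 and 1.90. The differences were -3.40 (standard error 0.53, adjusted p = 0.0212), -2.87 (standard error 0.46, adjusted p = 0.0222) and -3.0 (standard error 0.54, adjusted p = 0.0386). Of 10 interferon response genes none was called in males, with a median of -0.32 against 2.42 in females. In this list, which holds Ifit1 and Ifit3 but not Ifit3b, 3 genes had a called difference. The level of this list was 1.09 on AGED male replicate 1 and -1.53 to -0.34 on the other AGED males, against -0.25 to 0.53 on MAT males. In the opposite direction, Rasl10a, Coro6, Orai2 and Ccdc57 had higher changes in males. Rasl10a, a small GTPase, rose by 1.22 in males (adjusted p = 0.00560) and changed by -0.33 in females, a difference of 1.55 (adjusted p = 0.0386). Coro6, a coronin, Orai2, a calcium channel subunit, and Ccdc57 changed by 0.68, 0.91 and 0.69 in males, less than 2-fold, with differences of 1.23, 0.88 and 0.89 (adjusted p of 0.0197, 0.0389 and 0.0434).

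Among features without a symbol, which are all but 15278 of the 25054 tested, 25 were higher and 49 lower. Those on chromosome intervals numbered 9 higher and 7 lower of 3088 tested, where 0.271% of all genes were higher and 0.603% lower. The rises of intervals were near the share of all genes and the falls below it. The largest rise of an interval was 2.65, for chromosome 5 from 14943275 to 14944205 of mm9 (adjusted p = 0.0305), with 2 of 4 MAT arrays well above background. Adjacent intervals on chromosome 1, from 85300475 to 85331475 and from 85304494 to 85305390, overlap and rose by 1.16 and 1.83 in males and by 1.56 and 1.96 in females. A transcript that the files name XM_003086325 rose by 4.34 (standard error 0.53, adjusted p = 0.000851), from -6.00 to -5.21 in MAT to -2.08 to 0.62 in AGED males. Other genes called on the male arrays alone, listed after their values were seen, included C79246, Kng1, Sntg1 and Mlana among the rises (1.59, 1.87, 1.52 and 1.38) and Gm525 among the falls (-1.46). One MAT value of Sntg1 was removed as a flagged spot.

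Background correction moved the size of other named changes by over 1.5 times. Under normexp the rises of Arg1, Defb50, S100a8, Cd5l and Prg4 were 1.51, 1.5, 1.33, 1.77 and 1.33, and the changes of AI593442 and Slc38a5 were -1.08 and -1.37, all still called. The falls of Smoc2, Prss23 and Kcnmb1 were larger there, with changes of -2.30, -2.41 and -1.78. With array weights Arg1, Cck, Wif1, Gsdmc3, Cyp1a1 and Prg4 lost their call (adjusted p of 0.0986, 0.0555, 0.0619, 0.0898, 0.0540 and 0.113). Krt10 changed by -0.74 with its probes averaged and Lcn2 by 0.99 with median scaling, both less than 2-fold.

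AGED male replicate 1, the dim array, was the highest AGED array in 226 of the 345 genes that were 2-fold or more higher (65.5%), in 37 of the 68 called higher (54.4%) and in 30.7% of all genes tested. Without it 243 of the 345 and 60 of the 68 were still 2-fold or more higher. Of the 427 genes 2-fold or more lower, it was the lowest AGED array in 27.9%, against 37.7% of all genes tested. The part of this array in each rise was not tested beyond these counts and the values without it given above.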

How the data were processed

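Members (arrays, gene lists and named genes) were chosen with earlier results of these data known. The authors scanned 1-colour Agilent arrays and deposited, per the file headers, spot intensity from Feature Extraction, namely a background-subtracted, detrended processed signal, the median signal and background, and flags. They also deposited a log2 table, scaled per array and centred on each probe's median, used here as an alternative. 
Log2 processed signals were averaged over spots of a probe, less the 75th percentile over the array's non-control spots. Flagged spots were left out (314 probe values on male arrays), and no spot was saturated. Accessions were matched to RefSeq (GRCm38.p6, used for names and promoters only), which named 26582 of 55681 probes. limma 3.58.1 in R 4.3.3 fitted 4 group means over 16 arrays (12 residual degrees of freedom). Calls needed an adjusted p under 0.05 and 2-fold; the difference between the sexes had no fold limit. Where no array of a group was well above background, folds are bounds under the main processing. Each dim array was set at the higher of its signal and the array's lowest signal well above background. For Ephb1 this changed no value, so its fold is the fitted one. Exact permutation tests were two-sided (smallest p 0.0286).

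Named genes were the 15 largest rises and falls among called genes with a symbol, no overlap and a brighter group above background on all arrays, the 5 brightest called each way, called or bright list members, the study's listed genes and receptors, and the 5 largest differences each way; some are not reported here. Alternatives covered scaling, background, filters, probes, tests and left-out arrays. The procedure was also run on simulated arrays with the same spread in every group. That run cannot judge the fit under the unequal spread of these groups. Replicates are separate mice by the design text, and their number limits the precision. Replicate numbers equal slide columns and did not pair mice. Same-number arrays of AGED and MAT males did not deviate together: correlations were -0.0659, -0.162, -0.139 and 0.0721.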

Additional observations from a re-analysis of the deposited data

Results flagged for a closer look

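Single arrays stood far from the other 3 of their group, by Dixon's ratio of the gap to the group's range. Of the array measures, AGED male replicate 1 had the lowest 75th percentile (0.873) and MAT male replicate 4 the lowest background (a ratio of 1.0, 30.5 against 32). Among genes, AGED male replicate 1 was highest in Cyp1a1 (0.907), Fpr2 (0.837), Ogfod1 (0.878) and Padi2 (0.876), and AGED male replicate 3 lowest in Cyp2c23 (0.890). Replicate 2 of AGED males was highest in Wif1 (0.874), MAT male replicate 2 in Ifit1 (0.897) and Krt10 (0.952), and MAT male replicate 1 in Saa3 (0.934). Of the lists, AGED male replicate 1 was highest in macrophage scavenging and identity (0.916), AGED male replicate 2 lowest in the receptors (0.926) and MAT male replicate 4 lowest in drug and steroid metabolism (0.886). About 1 in 20 such groups would stand out by chance. The limit of the ratio was exceeded in 16.7% of 12 sets of array measures, 7.44% of 121 sets of gene values and 3.95% of 76 sets of list levels, none of which are independent.

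The age change differed between males and females in 57 genes (limma, adjusted p of the difference). Among those named, the male change was the higher in Chil3 (3.15), Rasl10a (1.55), Coro6 (1.23), Ccdc57 (0.894) and Orai2 (0.880), and the lower in Ifit1 (-3.40), Ephb1 (-3.18), Ifit3b (-3.0), Ifit3 (-2.87), Rln1 (-2.67), Padi2 (-2.31) and Tmsb15l (-1.62), each as males minus females on the log2 scale. Females lay on the other slide, so sex and slide cannot be told apart.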

How the results depend on the processing

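With 219 genes called in males (68 higher, 151 lower) and 57 called for the difference between the sexes, quantile or median scaling, the authors' log2 table, a floor, flagged spots kept, probe averages, 2 other filters on dim probes and a trended fit gave 207 to 247 called genes. Keeping only probes well above background on all 8 male arrays gave 169, testing each probe 298, array weights 248 and removing the local trend 196. Larger shifts came from normexp (730 called, 670 lower, difference 461), no filter (589 called, 430 higher, difference 6), and array weights (difference 329). Leaving out 1 array gave 125 to 366 called, 36 to 94 higher, 89 to 272 lower and a difference of 6 to 285, with the fewest calls without MAT male replicate 3 and the most without AGED male replicate 2. The male arrays alone gave 17 (8 higher, 9 lower), and 64 (19 higher, 45 lower) without AGED male replicate 1. The methods' t-test gave 410 at its unadjusted limit with 2-fold (137 higher, 273 lower) and 0 after Benjamini-Hochberg, limma unadjusted 617 (236 higher, 381 lower), and limma without a fold limit 487 (187 higher, 300 lower). The replicate block on the male arrays gave 1 called gene (Chil3, with 1 higher and 0 lower). Replicate number equals slide column, so this block is a position on the slide. Same-number arrays did not deviate together. Signs turned in genes that were not called in males, among them Ccdc57, whose difference between the sexes was called: Adrb3 (-0.128 normexp, -0.00214 array weights, -0.0520 to 0.360 with 1 array left out), Ccdc57 (-0.18 normexp), Chrm2 (-0.0182 array weights), Gapdh (0.0796 normexp, 0.13 mean of probes), Gsg1l (0.0072 normexp), F10 (-0.0774 quantile, -0.556 normexp, -0.0106 array weights, -0.0518 to 0.317 with 1 array left out) and P2rx1 (-0.0525 quantile, -0.0596 median, -0.00122 authors' table, -0.0853 normexp, -0.0378 array weights, -0.192 with the local trend removed, -0.119 to 0.0655 with 1 array left out). Removing the local trend and the male arrays without AGED male replicate 1 were chosen after seeing the data. The cause of these shifts was not tested. Genes near background in 1 group, such as Saa3 and Arg1, carry bounds or wide errors only. The fold of Ephb1, also near background in 1 group, depends on the background correction.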
